A study of Homo sapiens with 16 samples.

Results

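The 7 genes described here encode the CDK inhibitors of the CIP/KIP and INK4 families. The 3 CIP/KIP genes are CDKN1A (p21), CDKN1B (p27) and CDKN1C (p57), and the 4 INK4 genes are CDKN2A (p16), CDKN2B (p15), CDKN2C (p18) and CDKN2D (p19). They were chosen by gene symbol out of 25369 genes in the table of read counts.

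The study measured polyadenylated RNA by strand-specific RNA-seq in TPC1 and K1 cells, lines derived from papillary thyroid carcinoma, and asked how inhibition of MDM2 and of PPM1D changes their transcriptomes. Each line was treated for 24 h with 0.2% DMSO as vehicle, with 10 µM of the MDM2 inhibitor nutlin-3a (nutlin), with 25 µM of the allosteric PPM1D inhibitor GSK2830371 (GSK), or with 10 µM nutlin and 25 µM GSK together (the combination). These 4 treatments in 2 lines gave 8 groups of 2 libraries, 16 libraries in all. TPC1 was grown in RPMI and K1, a derivative of GLAG-66, in DMEM, so that line and medium cannot be told apart in any difference between the lines.

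Libraries are named by line, treatment and the number they carry in the count table, which is 1 or 3 for TPC1 and 1 or 2 for K1. The sample labels number the TPC1 replicates 1 and 2, so libraries numbered 3 were placed by line and treatment alone. Total counts ran from 30789887 to 76648552 in TPC1 (median 49874952) and from 28888686 to 37161241 in K1 (median 32046088.5). In TPC1 the replicate 1 libraries held 30789887 to 36896529 counts and the replicate 3 libraries 62853375 to 76648552, and CDKN1A, CDKN2A, CDKN2C and CDKN2D read lower in replicate 1 under each of the 4 treatments. The part of depth in this was not tested. Replicates of each group differed by more than sampling noise, with a chi-square per degree of freedom of 4.96 to 48.3. The study states in general that its replicates were prepared independently but does not say so of these libraries in particular, and p-values therefore measure the spread between these libraries. Levels are given as CPM, the read count scaled to the library's total, with totals adjusted by the trimmed mean of M values (TMM). A gene was counted as risen or fallen when edgeR's quasi-likelihood test gave an adjusted p under 0.05, with Benjamini-Hochberg adjustment over all genes tested, and the fold change was above 1.5. Of the genes above 0.1 CPM in at least 2 libraries, 15273 were tested in TPC1 and 15900 in K1, including 7 of the members in TPC1 and 5 in K1.

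The labelled origin of the lines was checked by markers of thyroid and of other cell types. Of 7 thyroid markers, 3 had a mean over 1 CPM in each line, led by the thyroid transcription factor PAX8 with a mean of 368 CPM in TPC1 and 784 CPM in K1. The thyrotropin receptor gene TSHR was at 0 in both lines, and NKX2-1 was at 0 in TPC1. Of 5 epithelial markers, 2 were over 1 CPM in each line, led by KRT8 at 424 CPM in TPC1 and 753 CPM in K1. Of 5 fibroblast markers, 2 were over 1 CPM in TPC1 and 3 in K1, and they summed to between 2.16 and 8.85 CPM in TPC1 libraries, led by LUM, and to between 4.14 and 9.22 CPM in K1, led by COL1A1, and DCN was at 0 in TPC1. The 3 endothelial markers, led by VWF, summed to at most 0.337 CPM in TPC1 and 0.790 CPM in K1. Of 4 leukocyte markers only the lysosomal gene CD68 was over 1 CPM, at 51.8 CPM in TPC1 and 64.6 CPM in K1, while CD3E was at 0 in both lines and PTPRC was at 0 in TPC1.

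Some marker sums moved with treatment. In TPC1 the epithelial sum was 770 to 923 CPM with DMSO, 663 to 752 CPM with GSK, 604 to 660 CPM with nutlin and 429 to 506 CPM with the combination. The thyroid sum was 342 to 354 CPM with DMSO and 499 CPM in each nutlin library, and 326 to 369 CPM with the combination. The leukocyte sum, nearly all of it CD68, was 33.3 to 37.1 CPM with DMSO and 68.8 to 75.0 CPM with nutlin. It was 45.1 to 51.6 CPM with GSK and 45.9 to 57.6 CPM with the combination. In K1 the epithelial sum was 1147 to 1225 CPM with DMSO and 886 to 962 CPM with the combination. From DMSO to nutlin the K1 thyroid sum went from 774 to 817 CPM up to 871 to 877 CPM, and the leukocyte sum from 54.3 to 63.9 CPM up to 72.6 to 76.2 CPM. The fibroblast sum was 8.46 to 8.85 CPM with DMSO and 2.16 to 3.34 CPM with the combination in TPC1, and 7.44 to 9.22 CPM and 4.14 to 4.75 CPM in K1. The part of these shifts in the results for the CDK inhibitors was not tested.

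CIP/KIP proteins bind complexes of CDKs with cyclins E, A and B and block their kinase activity, while they also help to assemble D-type cyclins with CDK4 and CDK6. INK4 proteins bind CDK4 and CDK6 alone and keep them from D-type cyclins, so that RB is not phosphorylated and E2F stays repressed. CDKN2A, whose locus also encodes p14ARF, an inhibitor of MDM2, is deleted or silenced in many tumors.

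The order of the 7 genes was compared on one scale, CPM per kilobase of the main transcript. In TPC1 with DMSO, CDKN2A was highest with a mean of 249.7 CPM per kilobase, followed by CDKN1A at 65.4, CDKN2C at 46.0, CDKN1B at 20.8, CDKN1C at 11.6, CDKN2D at 4.04 and CDKN2B at 2.20. In K1 with DMSO the order was CDKN1A at 53.3, CDKN2C at 37.5, CDKN1B at 12.3, CDKN2D at 5.96 and CDKN1C at 2.82 CPM per kilobase, with CDKN2A and CDKN2B at or near 0. The 2 libraries of neighbours in these orders did not overlap in either line. With the combination, CDKN1A was highest in both lines, at 5923 CPM per kilobase in TPC1 and 724 in K1. In TPC1 it was followed by CDKN1C at 131 and CDKN2A at 121, whose libraries overlapped, by CDKN1B at 19.1 and CDKN2B at 16.2, and by CDKN2D at 3.72 and CDKN2C at 3.56, which overlapped. In K1 it was followed by CDKN2C at 10.7 and CDKN1B at 10.5, which overlapped, and by CDKN2D at 3.76 and CDKN1C at 3.34, which did not. These orders rest on the transcript length taken for each gene, and some pairs stood the other way round in CPM. With the combination, CDKN1C read 5.92 CPM and CDKN2D 5.36 CPM in K1, and CDKN2B read 62.5 CPM and CDKN1B 46.0 CPM in TPC1. In TPC1 with DMSO, CDKN1B read 50.2 CPM and CDKN2C 45.8 CPM.

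**Figure D1:**
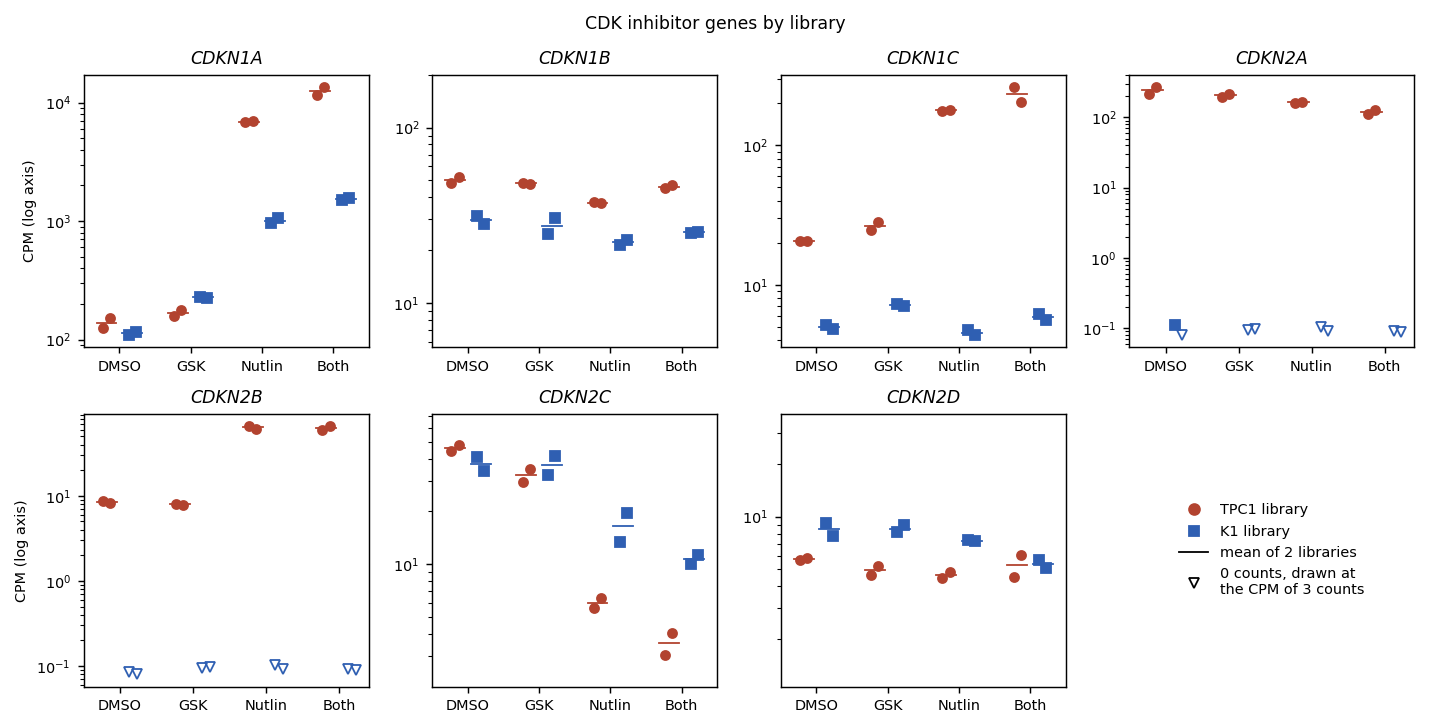
CPM on a log axis (vertical) of each CDK inhibitor gene in each library, by treatment (horizontal), with TPC1 as circles and K1 as squares, lines at the mean of 2 libraries and open triangles at the CPM of 3 counts where a library had 0 counts. CDKN1A stood higher with nutlin than with DMSO in both lines, CDKN1C and CDKN2B did so in TPC1, CDKN2C stood lower in both lines, and CDKN2A had 0 counts in 7 of 8 K1 libraries.

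CDKN1A encodes p21, which inhibits CDK2 complexes and binds PCNA. In TPC1 it stood at 125 and 152 CPM with DMSO, 157 and 179 CPM with GSK, 6819 and 6996 CPM with nutlin, and 11538 and 13538 CPM with the combination. In K1 the libraries read 109 and 116 CPM with DMSO, 229 and 226 CPM with GSK, 967 and 1055 CPM with nutlin, and 1512 and 1552 CPM with the combination. Within each line the 4 treatments kept the same order with no overlap, and with nutlin or the combination every TPC1 library stood above every K1 library. In TPC1, nutlin raised CDKN1A by 5.61 on the log2 scale (SE 0.141, adjusted p = 7.5e-09), rank 82 from the largest rise among 15273 genes. In K1 nutlin raised it by 3.16 (SE 0.0613, adjusted p = 2.1e-12), rank 66 among 15900 genes. The K1 change minus the TPC1 change was -2.48 (SE 0.149, adjusted p = 4.3e-09), so the nutlin response was smaller in K1.

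GSK alone raised CDKN1A in K1 by 1.01 (SE 0.0581, adjusted p = 2.8e-06), while the TPC1 value was 0.28 (SE 0.116, adjusted p = 0.22). The difference between the lines passed the test at 0.73 (SE 0.148, adjusted p = 0.017), but the call depended on single libraries. It was lost without K1 DMSO replicate 1 (0.69), K1 GSK replicate 1 (0.73), TPC1 DMSO replicate 3 (0.59) or TPC1 GSK replicate 1 (0.64). In these fits the difference stayed above the 1.5-fold limit and only the adjusted p threshold was missed. Adding GSK to nutlin raised CDKN1A further, by 0.87 in TPC1 (SE 0.116, adjusted p = 0.000996) and by 0.60 in K1 (SE 0.0559, adjusted p = 4.8e-05). The K1 value lay close to the 1.5-fold limit, and fell short of it at 0.54 without K1 Nutlin replicate 1, at 0.58 without K1 NutlinGSK replicate 2 and at 0.57 with moderated fold changes from DESeq2 fitted to the compared groups alone. The difference of this step between the lines was -0.26 (SE 0.146, adjusted p = 0.32). Against DMSO the combination raised CDKN1A by 6.47 in TPC1 (SE 0.146, adjusted p = 3.2e-09) and by 3.76 in K1 (SE 0.0628, adjusted p = 2.9e-13), and the difference of -2.74 between the lines passed the test (SE 0.149, adjusted p = 1.1e-09).

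The interaction, the change with both agents beyond the sum of the log2 changes with each, had opposite signs in the lines. It was 0.59 for CDKN1A in TPC1 (SE 0.164, adjusted p = 0.059) and -0.41 in K1 (SE 0.0802, adjusted p = 0.012, fold 1.33), and neither passed both thresholds. The TPC1 value passed with DESeq2's Wald test (0.60, adjusted p = 0.0053), without TPC1 DMSO replicate 1 (0.70) and without TPC1 NutlinGSK replicate 1 (0.69), while it was 0.45 (adjusted p = 0.137) without TPC1 DMSO replicate 3.

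The annotated CDKN1A gene lies on the plus strand of chromosome 6, at 36644237 to 36655114 in GRCh37.

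CDKN1C encodes p57, an imprinted inhibitor of the CIP/KIP family, on the minus strand of chromosome 11 (2904443 to 2907005 in GRCh37). In TPC1 it read 20.6 CPM in each DMSO library, 24.5 and 28.1 CPM with GSK, 177 and 179 CPM with nutlin, and 261 and 203 CPM with the combination. The K1 libraries read 5.16 and 4.85 CPM with DMSO, 7.28 and 7.02 CPM with GSK, 4.73 and 4.36 CPM with nutlin, and 6.22 and 5.62 CPM with the combination. All TPC1 libraries stood above all K1 libraries, and in TPC1 the 4 libraries with nutlin stood far above the 4 without it. In K1 the nutlin libraries lay below the DMSO libraries and the GSK libraries above them. Nutlin raised CDKN1C in TPC1 by 3.08 (SE 0.127, adjusted p = 9.7e-08), and the K1 value was -0.14 (SE 0.125, adjusted p = 0.44). The difference of -3.25 between the lines passed the test (SE 0.176, adjusted p = 1.6e-09), as did that of -3.26 for the combination (SE 0.172, adjusted p = 7.9e-10), whose change against DMSO was 3.47 in TPC1 (SE 0.129, adjusted p = 3.6e-08) and 0.24 in K1 (SE 0.119, adjusted p = 0.12). With GSK alone the value was 0.51 in K1 (SE 0.117, adjusted p = 0.0082), short of 1.5-fold at 1.43, and 0.36 in TPC1 (SE 0.122, adjusted p = 0.14). With DMSO, CDKN1C was lower in K1 than in TPC1, at -2.04 (SE 0.121, adjusted p = 2.2e-10).

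The genes next to CDKN1C on chromosome 11p15 were given as a list of 6, of which 5 were tested in TPC1 and 4 in K1. With nutlin 1 of 5 rose in TPC1, where 17.5% of all genes did, which was SLC22A18, a membrane transporter gene, at 1.63 (SE 0.192, adjusted p = 8.6e-05). The list median was also 1.63, against -0.00 over all genes, but a median of 5 genes is the value of 1 of them. In K1 none of 4 changed by edgeR's quasi-likelihood test or by DESeq2, where 3.84% of all genes rose and 5.43% fell by edgeR's test. The K1 list median was 0.41 against -0.00. Of these 4 genes, 2 had an unadjusted p under 0.05, as did 6338 of all 15900 genes. The number that rose was 2 in TPC1 without TPC1 DMSO replicate 1, TPC1 GSK replicate 1, TPC1 GSK replicate 3 or TPC1 Nutlin replicate 1, and 1 in K1 without K1 Nutlin replicate 2. H19 reached at most 1.51 CPM and IGF2 at most 0.241 CPM in any library.

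CDKN1B encodes p27, which holds CDK2 in check in resting cells and is regulated largely through its degradation. It lies on the plus strand of chromosome 12 (12838432 to 12875303 in GRCh37). In TPC1 it read 48.5 and 52.0 CPM with DMSO, 48.6 and 47.6 CPM with GSK, 37.6 and 37.1 CPM with nutlin, and 45.1 and 46.9 CPM with the combination. In K1 it read 31.1 and 28.1 CPM with DMSO, 24.7 and 30.4 CPM with GSK, 21.5 and 22.9 CPM with nutlin, and 25.1 and 25.4 CPM with the combination. The nutlin libraries were the lowest in both lines and did not overlap those with DMSO. The nutlin change was -0.46 in TPC1 (SE 0.0748, adjusted p = 0.00063, fold 1.38) and -0.41 in K1 (SE 0.0939, adjusted p = 0.0043, fold 1.33), under the adjusted p threshold and short of 1.5-fold in both lines. Their difference was 0.02 (SE 0.129, adjusted p = 0.98). CDKN1B was lower in K1 than in TPC1 with DMSO, at -0.76 (SE 0.0901, adjusted p = 1.2e-06).

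**Figure D2:**
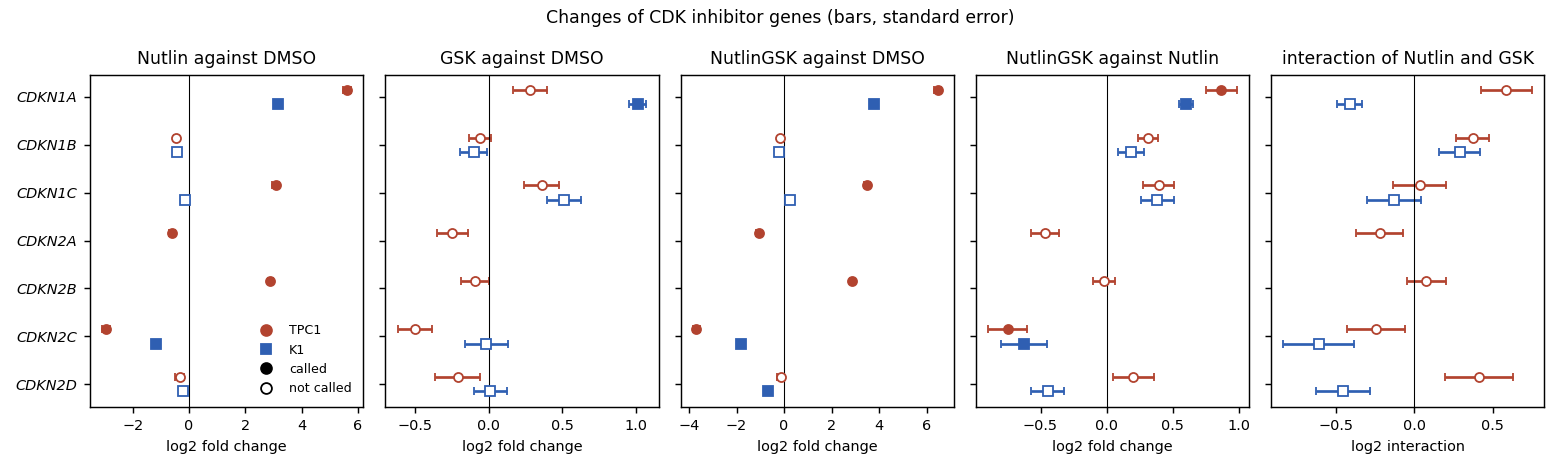
Log2 fold change, or log2 interaction in the last panel (horizontal), of each CDK inhibitor gene (vertical) in 5 comparisons, with TPC1 as circles, K1 as squares, bars for the standard error and filled symbols for changes that passed both thresholds. The nutlin changes of CDKN1A were 5.61 in TPC1 and 3.16 in K1, those of CDKN1C 3.08 and -0.14, and those of CDKN2C -2.95 and -1.18.

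CDKN2A, on the minus strand of chromosome 9 (21967751 to 21995300 in GRCh37), encodes the CDK4 and CDK6 inhibitor p16 and, from another first exon, p14ARF, and its count pools the transcripts of both. In TPC1 it read 217 and 271 CPM with DMSO, 194 and 216 CPM with GSK, 163 and 167 CPM with nutlin, and 111 and 126 CPM with the combination. Each of these pairs lay below the one before it with no overlap. In K1 it had 4 counts in DMSO replicate 1 (0.113 CPM) and 0 in the other 7 libraries, out of 260102013 reads in all 8. With DMSO the TPC1 level was 4604 times that of K1, with a 95% counting interval of 1798 to 16899. Taking 3 counts as the limit that a count of 0 allows in a library, at most 0.103 CPM in K1, the TPC1 level was at least 1998-fold higher with GSK, at least 1607-fold higher with nutlin and at least 1155-fold higher with the combination. The limit of 3 counts is lower than the upper end of the 95% counting interval of a count of 0, which reached 0.126 CPM in K1. Intervals and limits of this kind cover counting error only. In TPC1 CDKN2A fell with nutlin, at -0.60 (SE 0.105, adjusted p = 0.00104, fold 1.51), close to the fold limit, and the value was -0.43 without TPC1 DMSO replicate 3 and -0.58 without TPC1 Nutlin replicate 1. It fell by 1.07 with the combination (SE 0.106, adjusted p = 2.0e-05), and the combination against nutlin gave -0.47 (SE 0.105, adjusted p = 0.011, fold 1.38), short of 1.5-fold.

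CDKN2B, which encodes p15, an INK4 protein induced by TGF-beta, lies beside it on the same strand (22002902 to 22009304). In TPC1 it read 8.61 and 8.32 CPM with DMSO, 7.997 and 7.86 CPM with GSK, 65.6 and 61.8 CPM with nutlin, and 59.4 and 65.7 CPM with the combination. The 4 libraries with nutlin stood far above the 4 without it and overlapped one another. In K1 all 8 libraries had 0 counts. The TPC1 level was at least 82.4-fold higher than that of K1 with DMSO, at least 77.2-fold with GSK, at least 619.9-fold with nutlin and at least 608.8-fold with the combination. Nutlin raised CDKN2B in TPC1 by 2.88 (SE 0.0918, adjusted p = 2.0e-08) and the combination by 2.86 (SE 0.0917, adjusted p = 1.4e-08), with -0.02 between them (SE 0.0826, adjusted p = 0.904). So nutlin left these neighbouring INK4 genes on opposite sides of DMSO in TPC1, with CDKN2A lower and CDKN2B higher.

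The other genes of 9p21 were read beside them, from a list of 5 of which 5 were tested in TPC1 and 3 in K1. MTAP, a methionine salvage enzyme gene, read 66.4 and 65.6 CPM in TPC1 with DMSO and 31.8 and 30.4 CPM with nutlin, and fell by 1.12 (SE 0.0766, adjusted p = 2.5e-06). DMRTA1, on the far side of CDKN2B, read 2.17 and 2.27 CPM with DMSO and 5.66 and 6.25 CPM with nutlin, and rose by 1.39 (SE 0.131, adjusted p = 2.0e-05). In K1 both had 0 counts in all 8 libraries, as CDKN2B did. CDKN2B-AS1, the long noncoding RNA on the opposite strand, whose reads the stranded counting keeps apart, had 1 to 12 counts in K1 libraries. In TPC1 it read 3.01 and 3.23 CPM with DMSO and 1.82 and 1.49 CPM with nutlin, and fell by 0.97 (SE 0.182, adjusted p = 0.0016). With nutlin, 1 gene of the list rose and 2 fell in TPC1, and 1 of 3 fell in K1, ELAVL2, a neuronal RNA-binding protein gene, at -0.64 (SE 0.112, adjusted p = 0.00065). Of all genes, 17.5% rose and 18% fell in TPC1 and 5.43% fell in K1. The K1 count of genes that fell was 0 without K1 Nutlin replicate 2 by edgeR's test, and 1 gene rose there without K1 DMSO replicate 1 or K1 Nutlin replicate 1. The list medians were 0.52 in TPC1 and 0.55 in K1, against -0.00 over all genes in each line. With DMSO, 3 genes of the list were lower in K1 than in TPC1 (MTAP, DMRTA1, CDKN2B-AS1) and 2 were higher (IFNE, ELAVL2), where 46.2% of all genes differed. MTAP and DMRTA1 passed the filter only through TPC1, so that their difference followed from the filter. These counts do not tell a loss of DNA from a lack of transcription in K1.

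**Figure D3:**
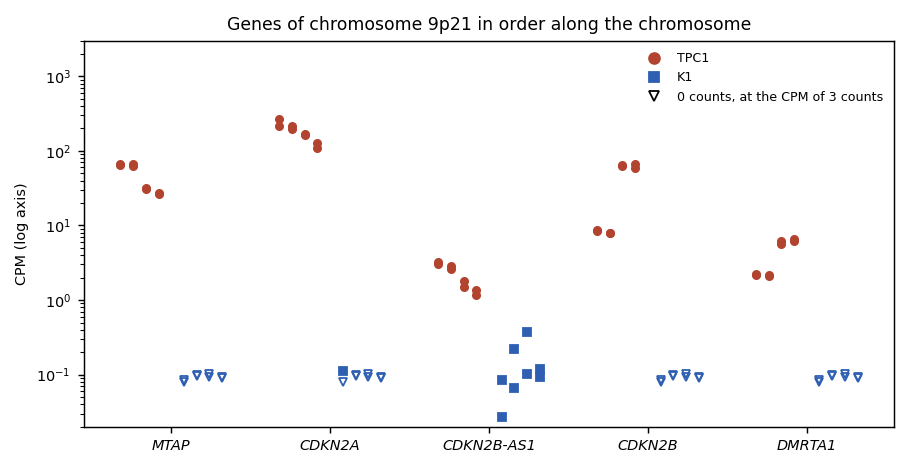
CPM on a log axis (vertical) of 5 neighbouring genes of 9p21 in order along the chromosome (horizontal), 1 symbol per library, with TPC1 as circles, K1 as squares and open triangles at the CPM of 3 counts where a library had 0 counts. From left to right within each group stand DMSO, GSK, nutlin and the combination, and K1 had 0 counts throughout for MTAP, CDKN2B and DMRTA1.

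CDKN2C encodes p18, an INK4 protein, on the plus strand of chromosome 1 (51426417 to 51440306 in GRCh37). Its TPC1 libraries read 44.01 and 47.5 CPM with DMSO, 29.5 and 34.9 CPM with GSK, 5.63 and 6.44 CPM with nutlin, and 3.03 and 4.05 CPM with the combination. In K1 it read 40.8 and 33.9 CPM with DMSO, 32.2 and 41.6 CPM with GSK, 13.3 and 19.5 CPM with nutlin, and 10.0 and 11.4 CPM with the combination. The 4 treatments did not overlap in TPC1, whereas in K1 the DMSO and GSK libraries overlapped and both stood above the rest. CDKN2C fell with nutlin by 2.95 in TPC1 (SE 0.132, adjusted p = 1.7e-07) and by 1.18 in K1 (SE 0.155, adjusted p = 6.2e-05), and the difference of 1.73 between the lines passed the test (SE 0.242, adjusted p = 4.7e-05). With the combination it fell by 3.70 in TPC1 (SE 0.139, adjusted p = 3.7e-08) and by 1.80 in K1 (SE 0.162, adjusted p = 9.4e-07), with a difference of 1.86 (SE 0.254, adjusted p = 2.3e-05). With GSK alone the values were -0.50 in TPC1 (SE 0.116, adjusted p = 0.052) and -0.02 in K1 (SE 0.145, adjusted p = 0.95), and their difference was 0.49 (SE 0.222, adjusted p = 0.23).

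Adding GSK to nutlin lowered CDKN2C, but the call rested on few libraries in both lines, and in K1 also on the processing. In TPC1 the change was -0.75 (SE 0.146, adjusted p = 0.0059), with an adjusted p of 0.0637 without TPC1 Nutlin replicate 3 and a value of -0.58 without TPC1 NutlinGSK replicate 1. In K1 it was -0.63 (SE 0.173, adjusted p = 0.032). It was -0.32 without K1 Nutlin replicate 2, -0.55 without K1 NutlinGSK replicate 1 and -0.72 without K1 NutlinGSK replicate 2, none of which passed. Nor did it pass with DESeq2's Wald test (-0.63, adjusted p = 0.0877) or with edgeR's test and library size alone (-0.58, adjusted p = 0.0567). With moderated fold changes from DESeq2 fitted to the compared groups alone it was -0.46, short of 1.5-fold. The difference of this step between the lines was 0.13 (SE 0.272, adjusted p = 0.85). The interaction in K1 was -0.61 (SE 0.226, adjusted p = 0.12) and passed without K1 Nutlin replicate 1 (-0.85, adjusted p = 0.0378) and with no filter on low counts (adjusted p = 0.0042), while it was -0.30 (adjusted p = 0.527) without K1 Nutlin replicate 2.

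CDKN2D encodes p19, the remaining INK4 protein, on the minus strand of chromosome 19 (10677136 to 10679735 in GRCh37). The TPC1 libraries read 5.68 and 5.82 CPM with DMSO, 4.63 and 5.25 CPM with GSK, 4.48 and 4.82 CPM with nutlin, and 4.52 and 6.07 CPM with the combination. In K1 it read 9.22 and 7.76 CPM with DMSO, 8.16 and 8.96 CPM with GSK, 7.33 and 7.25 CPM with nutlin, and 5.64 and 5.08 CPM with the combination. The combination libraries were the lowest in K1, while in TPC1 they spanned most of the range of the other libraries. CDKN2D fell with the combination in K1, by 0.66 (SE 0.121, adjusted p = 0.00055), though the value was -0.53 without K1 DMSO replicate 1, and the TPC1 value was -0.13 (SE 0.151, adjusted p = 0.46). The difference of -0.56 between the lines had an adjusted p of 0.035 (SE 0.199) and a fold of 1.48, short of 1.5, and it passed with no filter on low counts and without K1 DMSO replicate 2, K1 NutlinGSK replicate 1 or TPC1 NutlinGSK replicate 1, while it was -0.35 (adjusted p = 0.189) without TPC1 NutlinGSK replicate 3. With nutlin the values were -0.34 in TPC1 (SE 0.153, adjusted p = 0.091) and -0.22 in K1 (SE 0.117, adjusted p = 0.19). With DMSO the K1 level against TPC1 was 0.56 (SE 0.136, adjusted p = 0.0017, fold 1.47), and 0.68, past the limit, without K1 DMSO replicate 2, and 0.43 without K1 DMSO replicate 1.

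Counted by treatment, nutlin raised 3 of 7 members in TPC1 (CDKN1A, CDKN1C, CDKN2B), where 17.5% of all genes tested rose, and lowered 2 (CDKN2A, CDKN2C), where 18% fell. In K1 nutlin raised 1 of 5 members (CDKN1A), against 3.84% of all genes, and lowered 1 (CDKN2C), against 5.43%. The median change of the members tested was -0.34 in TPC1 and -0.22 in K1, against -0.00 over all genes in each line. GSK alone raised and lowered none of 7 members in TPC1 by edgeR's quasi-likelihood test, where 0.72% of genes rose and 0.681% fell. At an unadjusted p under 0.05 there were 2 members above DMSO (CDKN1A, CDKN1C) and 2 below it (CDKN2A, CDKN2C), and DESeq2's Wald test called 0. Of all genes, 3157 of 15273 had an unadjusted p under 0.05 there, in either direction. In K1, GSK alone raised 1 of 5 members (CDKN1A), against 0.736% of genes, and lowered 0 by edgeR's test, by DESeq2 and at an unadjusted p under 0.05, against 1.5% of genes.

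The combination against DMSO raised 3 of 7 members in TPC1 (CDKN1A, CDKN1C, CDKN2B), where 22.5% of genes rose, and lowered 2 (CDKN2A, CDKN2C), where 21.7% fell. In K1 it raised 1 of 5 (CDKN1A), against 7.62% of genes, and lowered 2 (CDKN2C, CDKN2D), against 8.09%. These comparisons share their DMSO libraries with those of the single agents. The combination against nutlin raised 1 of 7 members in TPC1 (CDKN1A), against 6.46% of genes, and lowered 1 (CDKN2C), against 5.66%, and in K1 it raised 1 of 5 (CDKN1A), against 1.16%, and lowered 1 (CDKN2C), against 1.52%. Against GSK alone the combination changed 5 of 7 members in TPC1, where 38.5% of genes changed, and 3 of 5 in K1, where 13.1% did. The TPC1 values were 6.19 for CDKN1A, 3.11 for CDKN1C, 2.95 for CDKN2B, -0.82 for CDKN2A and -3.19 for CDKN2C, and the K1 values 2.75 for CDKN1A, -1.78 for CDKN2C and -0.67 for CDKN2D. The interaction passed for none of 7 members in TPC1 by edgeR's test, against 6.32% of genes, and for 1 by DESeq2 (CDKN1A). At an unadjusted p under 0.05 there were 2 members and 3813 of all 15273 genes. It passed for none of 5 in K1, against 2.44% of genes, with 4 at an unadjusted p under 0.05 and 0 by DESeq2. Of all genes there, 3733 of 15900 had an unadjusted p under 0.05.

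Between the lines, the members were compared in a fit of all 16 libraries. CDKN2A and CDKN2B, at or near 0 in K1, passed the filter only through TPC1, so that their difference with DMSO followed from the filter, and members are counted here among the 5 tested in each line alone. With DMSO 2 of 5 differed, CDKN1B and CDKN1C, each lower in K1, where 46.2% of all genes tested differed. The nutlin response differed for 3 of 5 (CDKN1A, CDKN1C, CDKN2C), against 19.2% of genes, and the GSK response for 1 of 5 (CDKN1A), against 2.18%. The response to the combination differed for 3 of 5, again CDKN1A, CDKN1C and CDKN2C, against 25.7% of genes. The change from nutlin to the combination differed for none of 5 by edgeR's test, against 5.11% of genes, and for 0 by DESeq2. At an unadjusted p under 0.05 there was 1 member (CDKN2D, -0.64, SE 0.205, adjusted p = 0.065), and 3618 of all 16738 genes. This CDKN2D difference passed with the replicate number as a block (-0.65, adjusted p = 0.0194), with filterByExpr (-0.67, adjusted p = 0.0451), with no filter (-0.65, adjusted p = 0.0294) and without TPC1 NutlinGSK replicate 1 (-0.82, adjusted p = 0.0135), while it was -0.40 (adjusted p = 0.28) without TPC1 NutlinGSK replicate 3.

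The kinases and cyclins that these proteins inhibit were read as a list of 13 genes. With nutlin 18% of all genes tested fell in TPC1 and 5.43% in K1. In K1, 6338 of 15900 genes had an unadjusted p under 0.05 with nutlin, in either direction. With nutlin 8 of 13 fell in TPC1, with a median of -2.14 against -0.00 over all genes, and 7 of 12 fell in K1, with a median of -0.99 against -0.00. None rose in K1 by edgeR's test or by DESeq2, and 1 stood above DMSO at an unadjusted p under 0.05, while 1 passed without K1 DMSO replicate 2. CDK2, the main target of p21 and p27, fell by 2.14 in TPC1 (SE 0.0972) and by 1.26 in K1 (SE 0.0728), and CCNA2, its S-phase cyclin, fell by 5.38 (SE 0.139) and by 1.27 (SE 0.141). CDK4 and CDK6, the targets of the INK4 proteins, did not pass in either line with nutlin. CCND2, with 0 counts in both TPC1 DMSO libraries and 0.169 and 0.225 CPM with nutlin, passed the filter only through the libraries with nutlin, so that its call as higher followed from the filter. The nutlin response differed between the lines for 7 of 13, where 19.2% of all genes did, each less negative in K1, among them CDK2 at 0.85 (SE 0.136, adjusted p = 0.00017) and CCNA2 at 4.06 (SE 0.236, adjusted p = 3.3e-09). In these bulk samples, fewer cycling cells and less RNA per cell cannot be told apart.

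Adding GSK to nutlin lowered 3 of the 13 in TPC1, which were CCND1, CCNA2 and CCNB1, and 4 of 12 in K1, which were CDK1, CCNA2, CCNB1 and CCNB2, where 5.66% and 1.52% of all genes fell. The TPC1 count was 6 without TPC1 NutlinGSK replicate 3, and 1 gene rose without TPC1 NutlinGSK replicate 1. CCND1, which encodes the D-type cyclin that CDK4 and CDK6 bind, stood at 731 and 693 CPM with nutlin in TPC1 and at 282 and 283 CPM with the combination, a change of -1.33 (SE 0.0758, adjusted p = 1.3e-05). With GSK alone none of 13 passed in TPC1 by edgeR's test or by DESeq2, while 9 lay below DMSO at an unadjusted p under 0.05. Of all genes, 3157 of 15273 had such a p there, in either direction. In K1, 2 of 12 fell with GSK alone, where 1.5% of all genes did, CDK1 at -0.73 (SE 0.129, adjusted p = 0.002) and CCNE2 at -0.90 (SE 0.106, adjusted p = 0.00034). These counts were 1 in TPC1 without TPC1 DMSO replicate 3 and 1 in K1 without K1 GSK replicate 1.

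**Figure D4:**
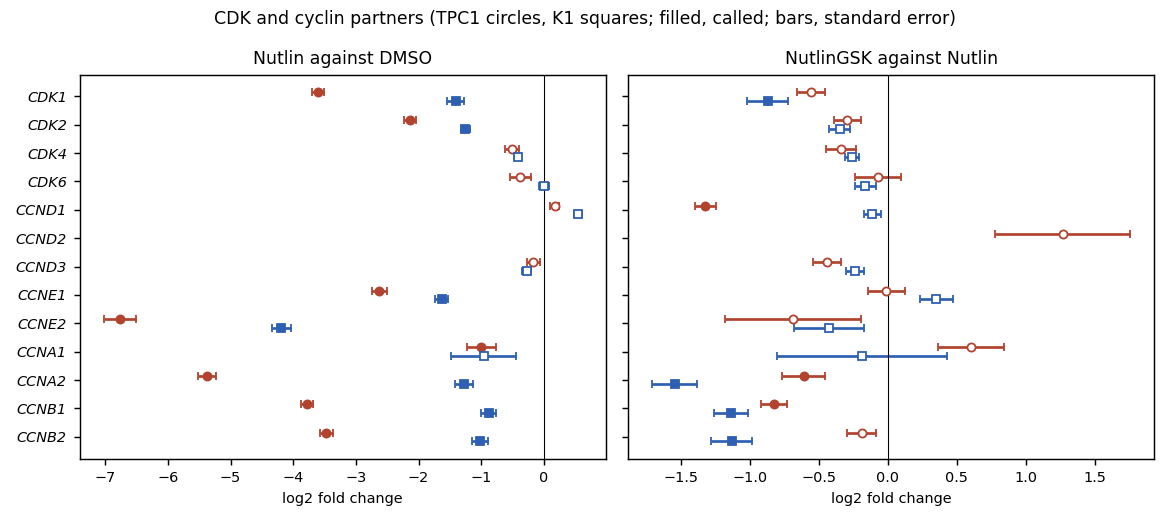
Log2 fold change (horizontal) of the CDK and cyclin genes (vertical) with nutlin against DMSO and with the combination against nutlin, with TPC1 as circles, K1 as squares, bars for the standard error and filled symbols for changes that passed both thresholds. The nutlin change of CCNA2 was -5.38 in TPC1 and -1.27 in K1, genes not tested are left out, and so is CCND2 with nutlin in TPC1, where DMSO had 0 counts.

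Of 13 RB and E2F genes, downstream of the inhibited kinases, 7 fell and 1 rose with nutlin in TPC1 (median -0.60 against -0.00) and 5 fell in K1 (median -0.32 against -0.00), where 18% of all genes fell and 17.5% rose in TPC1 and 5.43% fell in K1. E2F1, a transcription factor for S-phase genes, fell by 4.18 in TPC1 (SE 0.172) and by 2.53 in K1 (SE 0.0845), and E2F7, a repressor of the same genes, rose by 0.91 in TPC1 (SE 0.167, adjusted p = 0.0014). RB1 itself did not pass in TPC1, at 0.07 (SE 0.0813, adjusted p = 0.47). Of 11 genes of CIP/KIP protein turnover, 4 fell and 1 rose in TPC1 (median -0.38) and 3 fell in K1 (median -0.19), beside the same shares of all genes. SKP2, the receptor through which p27 is ubiquitinated, fell by 1.79 in TPC1 (SE 0.0847) and by 0.90 in K1 (SE 0.0635), and DTL, the receptor for p21 in S phase, fell by 3.80 (SE 0.0987) and by 3.01 (SE 0.0892). The 1 that rose was RNF123, a subunit of a ligase that acts on p27, at 0.94 (SE 0.0828, adjusted p = 1.3e-05). None of these lists had a gene that rose in K1 by edgeR's test or by DESeq2, with 1 RB or E2F gene and 2 turnover genes above DMSO at an unadjusted p under 0.05.

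Of 9 regulators of the INK4 locus, all chromatin factors, 2 fell and 1 rose with nutlin in TPC1 (median -0.33) and 2 fell in K1 (median -0.20), beside a median of -0.00 over all genes in each line. In TPC1 these counts lay near the shares of all genes, of which 18% fell and 17.5% rose, and in K1 5.43% of all genes fell. EZH2, the methyltransferase of Polycomb complex PRC2, fell by 2.55 in TPC1 (SE 0.0913) and by 1.84 in K1 (SE 0.0948), and its partner SUZ12 fell by 1.03 (SE 0.103) and by 0.60 (SE 0.0855). KDM6B, a demethylase that removes the PRC2 mark, rose by 1.41 in TPC1 (SE 0.145, adjusted p = 3.7e-05), and no regulator rose in K1 by edgeR's test or by DESeq2, with 1 above DMSO at an unadjusted p under 0.05. The count of regulators that rose was 2 in TPC1 without TPC1 DMSO replicate 1 or TPC1 Nutlin replicate 3, and the count that fell was 1 in K1 without K1 DMSO replicate 1 or K1 Nutlin replicate 2. Of 12 transcription factors known to act on these promoters, 2 rose and 1 fell in TPC1 (median 0.17) and 1 rose and 1 fell in K1 (median -0.10), where 17.5% of all genes rose and 18% fell in TPC1 and 3.84% rose and 5.43% fell in K1. The number that fell was 2 in TPC1 without TPC1 DMSO replicate 3 or TPC1 Nutlin replicate 1 and 2 in K1 without K1 Nutlin replicate 2. MYC, which represses several CDK inhibitor genes, fell by 1.37 in TPC1 (SE 0.0977) and by 1.00 in K1 (SE 0.126). TP73 stood at 0.154 to 0.211 CPM with DMSO and at 0.900 to 1.38 CPM with nutlin in TPC1, and at 0.141 to 0.267 CPM and 10.9 to 11.9 CPM in K1, and rose in both. The genes of both drug targets, MDM2 and PPM1D, rose with nutlin in both lines, MDM2 by 4.96 in TPC1 and 3.05 in K1 and PPM1D by 1.90 and 1.32, and both rises were smaller in K1, with differences of -1.95 (SE 0.116, adjusted p = 4.0e-09) and -0.61 (SE 0.136, adjusted p = 0.0025).

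The genes whose pattern over the 16 libraries was most like that of each member were found among 11357 genes, by the root mean square difference of log2(CPM + 0.1) after centring each gene within each line. For CDKN1A these were CDH10 (0.341), BTG2 (0.371) and NBEAP1 (0.377), and for CDKN1B they were WAC (0.0827), EXOSC6 (0.0844) and TIAL1 (0.0847). ZNF385A (0.248) and GPR124 (0.279) were among the 3 nearest to CDKN1C. KIF22 (0.177), INCENP (0.186) and WDR62 (0.193) were nearest to CDKN2C, and ZNF266 (0.115) and TIMM21 (0.118) were among the 3 nearest to CDKN2D. The small values for CDKN1B and CDKN2D go with the narrow range of those genes. The lowest group mean was 0.0595 CPM for CDH10 and 0.132 CPM for NBEAP1. These means lie near the 0.1 CPM added before the logarithm, so the likeness of both genes to CDKN1A depends partly on it. CDKN2A and CDKN2B were left out of this measure for want of reads in K1.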

How the data were processed

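Poly(A) RNA of 16 libraries was sequenced strand-specifically. The authors aligned reads with TopHat2 2.0.13 and Bowtie2 2.2.3.0 to GRCh37, identified duplicates with Picard 1.129 without stating their removal, and deposited raw counts per gene from HTSeq 0.6.1, counted by strand. From these counts, genes above 0.1 CPM in at least 2 libraries were scaled by TMM and tested with edgeR 4.0.16 (quasi-likelihood test, Benjamini-Hochberg adjustment over all genes tested) in R 4.3.3, in 1 fit of 8 libraries per line and 1 fit of all 16 for differences between lines. Calls needed an adjusted p under 0.05 and a fold above 1.5. Alternatives were DESeq2 1.42.0, other scaling and filters, the compared groups alone, a replicate block, and each library left out in turn. All 7 members were named whatever their values. Lists covered CDKs and cyclins, RB and E2F, CIP/KIP turnover, INK4 regulators, transcription factors, 9p21 and 11p15 neighbours, drug targets and cell markers. Members and lists were chosen with earlier results of these data known.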

Additional observations from a re-analysis of the deposited data

Results flagged for a closer look

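For 3 of the 5 CDK inhibitor genes tested in each line alone, the response to treatment differed between K1 and TPC1 by edgeR's quasi-likelihood test of the difference itself, given here as the K1 change minus the TPC1 change on the log2 scale. Of all genes tested, 19.2% differed in their response to nutlin, 2.18% in that to GSK and 25.7% in that to the combination. CDKN1A differed by -2.48 with nutlin, by 0.73 with GSK and by -2.74 with the combination. The call of the GSK difference depended on single libraries. In the 4 fits without 1 library where it did not pass, the difference was 0.59 to 0.73. It stayed above the 1.5-fold limit there and missed the adjusted p threshold. CDKN1C differed by -3.25 with nutlin and by -3.26 with the combination. CDKN2C differed by 1.73 with nutlin and by 1.86 with the combination. The lines also differ in medium, and its part in the differences cannot be told apart from that of the line.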

How the results depend on the processing

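Of 1678 values of members recomputed under 24 other settings, 1609 kept their direction and their side of the thresholds, 18 passed no more, 14 passed newly and 37 changed sign. Of 2048 counts of list genes, 62 moved by over 1.5 times. In K1 a count of 0 allows up to 0.103 CPM. No called member changed direction under any scaling. The cause of each change was not tested.

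The number of members that passed changed as follows. For the combination against nutlin in K1 it was 2, and 0 with the moderated fold change of DESeq2 on the compared groups alone, 1 with DESeq2's Wald test, 1 with library size alone, and 0 to 2 with 1 library left out. For the interaction in K1 it was 0, and 1 with no filter, and 0 to 1 with 1 library left out. For the interaction in TPC1 it was 0, and 1 with DESeq2's Wald test, and 0 to 1 with 1 library left out. For the difference between lines from nutlin to the combination it was 0, and 1 with filterByExpr and with no filter, and 0 to 1 with 1 library left out. With 1 library left out, the GSK response differed between lines for 0 to 1 members, 1 to 2 members passed for the combination against nutlin and 4 to 5 for nutlin in TPC1, 2 to 3 passed for the combination in K1, 4 to 5 of all 7 differed between lines with DMSO (CDKN2A and CDKN2B included), and 3 to 4 differed in their response to the combination, which was 4 with no filter.

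Signs that reversed belonged to small values that had not passed. The GSK value of CDKN2D in K1 was -0.0044 with the compared groups alone and moderated DESeq2, -0.0059 with DESeq2 size factors and -0.0062 with its Wald test. With no filter the nutlin difference of CDKN1B was -0.0136. With library size alone CDKN1C gave 0.0503 for the nutlin-to-combination difference and -0.0330 for the TPC1 interaction, CDKN1B gave 0.00913 for the combination difference, and CDKN2D gave -0.0257 for the combination against GSK in TPC1. With 1 library left out, the group then having 1 library whose spread was taken from the other groups, these ranges spanned 0. In K1 they were -0.26 to 0.0389 for CDKN1B, -0.21 to 0.16 for CDKN2C and -0.11 to 0.14 for CDKN2D with GSK, and -0.27 to 0.0314 for CDKN1B with the combination against GSK. In TPC1 CDKN2D ran from -0.36 to 0.0474 for the combination, -0.15 to 0.26 against GSK and -0.0302 to 0.38 against nutlin, CDKN2B from -0.0843 to 0.0493 against nutlin, and the CDKN1C interaction from -0.16 to 0.21. Between lines CDKN1B ran from -0.19 to 0.11 for GSK and -0.0565 to 0.0904 for nutlin, CDKN2D from -0.0395 to 0.21 for nutlin, and CDKN1C from -0.18 to 0.19 and CDKN2C from -0.11 to 0.44 for the nutlin-to-combination difference.

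With the replicate number as a block, the nutlin-to-combination difference had 1 member that passed and CDKN1C gave 0.00207 there. Same-numbered libraries deviated together in TPC1 (r of 0.459 to 0.647 over 6 pairs of treatments) and not in K1 (r of -0.326 to 0.343), each line having 2 numbers, and whether libraries of 1 number were prepared together is not stated. In TPC1 each member kept its direction and its side of the thresholds with the block. The block raised the share of genes called from 1.4% to 3.14% for GSK in TPC1, from 6.32% to 10.3% for the TPC1 interaction and from 2.18% to 3.66% for the GSK response between lines.

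That last share was 2.93% with no filter and 0.317% to 4.66% with 1 library left out. With DESeq2 on the compared groups alone and moderated fold changes, the share was 0.774% in place of 2.23% for GSK in K1 and 0.777% in place of 2.68% for the combination against nutlin in K1, and for GSK in TPC1 the compared groups alone gave 0.727% with edgeR and 0.748% with moderated DESeq2, and no filter 1.95%. Leaving out 1 library gave 0.145% to 1.67% for GSK in TPC1, 2.27% to 7.58% for the TPC1 interaction, 1.12% to 4.03% for GSK in K1, 1.43% to 2.82% for the combination against nutlin in K1 and 0.126% to 4.37% for the K1 interaction. Library size alone moved the percent of calls that were higher from 51.4 to 66.1 for GSK in TPC1, 44.7 to 32.4 for the TPC1 interaction, 43.2 to 53.8 for the combination against nutlin in K1, 73.2 to 84.0 for the K1 interaction, 27.4 to 16.6, 46.2 to 57.8 and 50 to 61.0 for the GSK, combination and nutlin-to-combination differences, and moved the median of all genes to -0.11 for the combination against GSK in TPC1.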
